A study of Mus musculus with 192 samples.

Results

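Genes of the fibroblast growth factor (FGF) and extracellular signal-regulated kinase (ERK) pathway were followed through single mouse embryonic stem (ES) cells: the ligands Fgf4 and Fgf5, the receptor Fgfr1, the feedback inhibitors Spry2, Spry4 and Dusp6, the ETS factors Etv4 and Etv5, and the primed-state factors Otx2 and Pou3f1. These 10 genes were chosen by name, out of 24264 genes in the table of molecule counts. The cells were of R1, an established ES cell line, grown in ES1 medium (composition not given in the sources used here) on irradiated mouse embryonic fibroblast feeders. All came from 1 culture, had feeders removed by settling and dying cells removed on annexin V beads, were frozen, and were captured after thawing in the 96 chambers, here called wells, of 1 microfluidic chip. Synthetic spike-in RNAs were lysed with each cell, and cDNA was amplified by 21 cycles of PCR, and again by 9 further cycles for a second form of the same libraries. The counts used here have 1 column per cell, and which library form they came from is not given in the sources used here.

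FGF ligands bind receptor tyrosine kinases at the cell surface, and the signal runs through Ras, Raf and MEK to ERK. Active ERK switches on ETS factors and also its own inhibitors, the Sprouty proteins, which act upstream near Ras and Raf, and the phosphatase Dusp6, which acts on ERK itself, so that mRNAs of these targets are often read as a record of signalling. In mouse ES cells Fgf4 is the main ligand the cells make for themselves, and ERK signalling moves them from the naive state toward the primed state, in which Fgf5, Otx2 and Pou3f1 are made.

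Sequences upstream of a RefSeq transcription start were taken for 3 of the genes. Spry2 and Dusp6 were taken because their levels per gene molecule went opposite ways between wells of low and high RNA content. The ratio of Dusp6 was within counting error of the median of all genes, as given below. Fgf4 was taken because its level went with ES cell markers in RNA-rich wells. RefSeq promoters on GRCm38.p6 were matched for 6 of the 10 genes (Fgf4, Fgf5, Spry2, Dusp6, Etv5 and Otx2). The 250 bases shown run 5′ to 3′ on the gene's strand and end at the base before the start, at chr7:144861136-144861385 on the plus strand for Fgf4, chr14:105896820-105897069 on the minus strand for Spry2 and chr10:99262981-99263230 on the plus strand for Dusp6, and none overlaps an exon of GENCODE M21. The Fgf4 window lies inside the GENCODE span of that gene, which begins farther upstream. Capitals mark matches to CCAAT on either strand, read as ATTGG on the strand shown when the match lies on the other one.
Fgf4: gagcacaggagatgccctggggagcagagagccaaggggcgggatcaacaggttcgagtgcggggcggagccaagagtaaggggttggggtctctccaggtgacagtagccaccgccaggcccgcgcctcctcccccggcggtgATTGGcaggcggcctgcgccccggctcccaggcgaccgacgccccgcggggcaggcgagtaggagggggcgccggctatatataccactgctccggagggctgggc
Spry2: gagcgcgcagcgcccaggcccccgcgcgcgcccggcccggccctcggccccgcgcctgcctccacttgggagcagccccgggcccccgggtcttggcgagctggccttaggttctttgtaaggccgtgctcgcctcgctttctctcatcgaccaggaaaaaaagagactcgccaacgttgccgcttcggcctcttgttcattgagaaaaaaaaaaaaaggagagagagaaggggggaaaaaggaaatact
Dusp6: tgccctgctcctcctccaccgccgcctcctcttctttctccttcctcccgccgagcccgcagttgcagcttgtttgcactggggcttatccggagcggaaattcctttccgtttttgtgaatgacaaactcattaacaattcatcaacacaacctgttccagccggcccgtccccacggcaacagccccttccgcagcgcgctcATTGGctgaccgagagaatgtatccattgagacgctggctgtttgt
Over both strands, CCAAT was present in the 250 bases upstream of 33.9% of 32841 RefSeq promoters. CCGGAA, 1 form of an ETS-type site, was present in 12.03%, and TATAAA, 1 form of the TATA box, in 12.4%. The upstream sequences of Fgf4 and Dusp6 each held 1 match to CCAAT, from -106 to -102 and from -46 to -42 relative to the start, and that of Spry2 held none. None of these 3 windows held the exact letters CCGGAA or TATAAA, while the Fgf5 window held 1 match to CCGGAA. Only these exact letters were searched. Other forms were not counted, such as tatatata in the Fgf4 window or ggaa in those of Spry2 and Dusp6. The first start of Etv5 held 1 match to CCAAT and the second, whose window overlaps an exon of Etv5, held 3. A match is a stretch of letters in this window and no more.

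The wells were read in 2 ranges set by their gene molecules, that is, molecules of all features other than spike-ins and repeats. The 45 low-RNA wells held from 8774 to 35543 (median 22234) and the 51 RNA-rich wells from 51390 to 573648 (median 98750), with median spike-in counts of 6098 and 7992. Mitochondrially encoded genes and Rn45s, the ribosomal precursor RNA, took a median of 34.7% of gene molecules in low-RNA wells and 13.0% in RNA-rich wells. Wells C03 and H03 stood apart: they had 36465 and 55740 spike-in molecules and gave 15.3% of the gene molecules of the RNA-rich range, so results are also given without them. Well H12, in the low-RNA range, had only 926 spike-in molecules. All 13 ES cell markers were detected in both ranges. Their summed level, as molecules per 10000 gene molecules, had a median of 55.1 in low-RNA wells and 94.97 in RNA-rich wells. Most of that sum was Dppa5a, at pooled levels of 37.4 and 69.1. Klf4, Sox2, Sall4 and Dppa4 were higher in low-RNA wells, with ratios to RNA-rich wells of 1.61, 1.26, 1.14 and 1.10, and the other markers were lower. Markers of other cells were summed in the same way over fixed lists of 12 feeder fibroblast, 9 primitive endoderm and 7 trophectoderm genes. In 12 RNA-rich wells (D02, E02, A03, H05, A06, H07, D08, A09, G10, A11, F12 and G12) the feeder or the trophectoderm sum was over 20, a limit chosen after seeing the values, and these are called marker-high wells. Their feeder sums ran from 12.6 to 169 against 3.91 to 16.9 in the other 39 RNA-rich wells, and their trophectoderm sums from 2.56 to 73.3 against 1.74 to 11.3. Their ES marker sums had a median of 37.045, against 114 in the other RNA-rich wells. Over the RNA-rich range as a whole the feeder and trophectoderm sums came mostly from Lgals1 (7.32), S100a6 (3.40), Krt18 (6.27) and Krt8 (5.28). There the defining genes Postn and Elf5 were at 0 and Thy1, Col3a1 and Dcn at or near 0. Col1a1 (0.0685), Col1a2 (0.103), Cdx2 (0.0257), Gata3 (0.0308) and Eomes (0.0497) were low. Single markers were not read in the 12 wells alone. The wells are therefore called by the sums and given no cell type.

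With 1 culture there is 1 sample, so no test between conditions was possible, and the intervals below are 95% intervals of counting error only. A level is given as molecules per 10000 gene molecules, pooled over wells unless said otherwise. A low value in a well cannot tell fewer transcripts from poorer capture, and no empty well or cell known to lack these genes was available here to show what free RNA adds. All 10 genes were detected, with from 35 (Fgf5) to 1018 (Etv5) molecules over the 96 wells. Every molecule of 9 of them came from reads with a unique match, but only 44.2% of those of Etv5 did, so the level of Etv5 is uncertain: reads it shares with another locus may have been counted to it. Well D01 and the outlying wells C03 and H03 were the 3 wells with a molecule of all 10 genes, and a median of 7 genes per RNA-rich well and 4 per low-RNA well were detected. Summed over the 10 genes, the level was 3.92 in low-RNA wells and 4.18 in RNA-rich wells, and ranged in single wells from 0.762 to 7.499 and from 1.55 to 12.4, the highest being well A08.

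Levels over all wells are given first divided by the transcript length listed with the counts, and then without that division. Per kilobase, Etv5 was highest at 0.379 molecules per 10000 (0.356 to 0.403), followed by Dusp6 at 0.228 (0.208 to 0.250) and Spry2 at 0.185 (0.164 to 0.208), whose intervals just met. Fgfr1 followed at 0.123 (0.112 to 0.135). Pou3f1 at 0.0864 and Fgf4 at 0.0840 had overlapping intervals, as did Otx2 at 0.0520 and Etv4 at 0.0492. Spry4 at 0.0346 and Fgf5 at 0.0197 were lowest. The unit is a counted molecule, so a transcript counts once whatever its length, and division by length raises short transcripts. The order between genes is therefore read from the levels without division. These were Etv5 1.49, Dusp6 0.662, Fgfr1 0.629, Spry2 0.405 and Pou3f1 0.269 molecules per 10000. Fgf4 was at 0.263, Spry4 at 0.162, Etv4 at 0.120, Otx2 at 0.0949 and Fgf5 at 0.0511. By this measure Fgfr1 lay above Spry2, and Spry4 above Etv4 and Otx2.

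**Figure D1:**
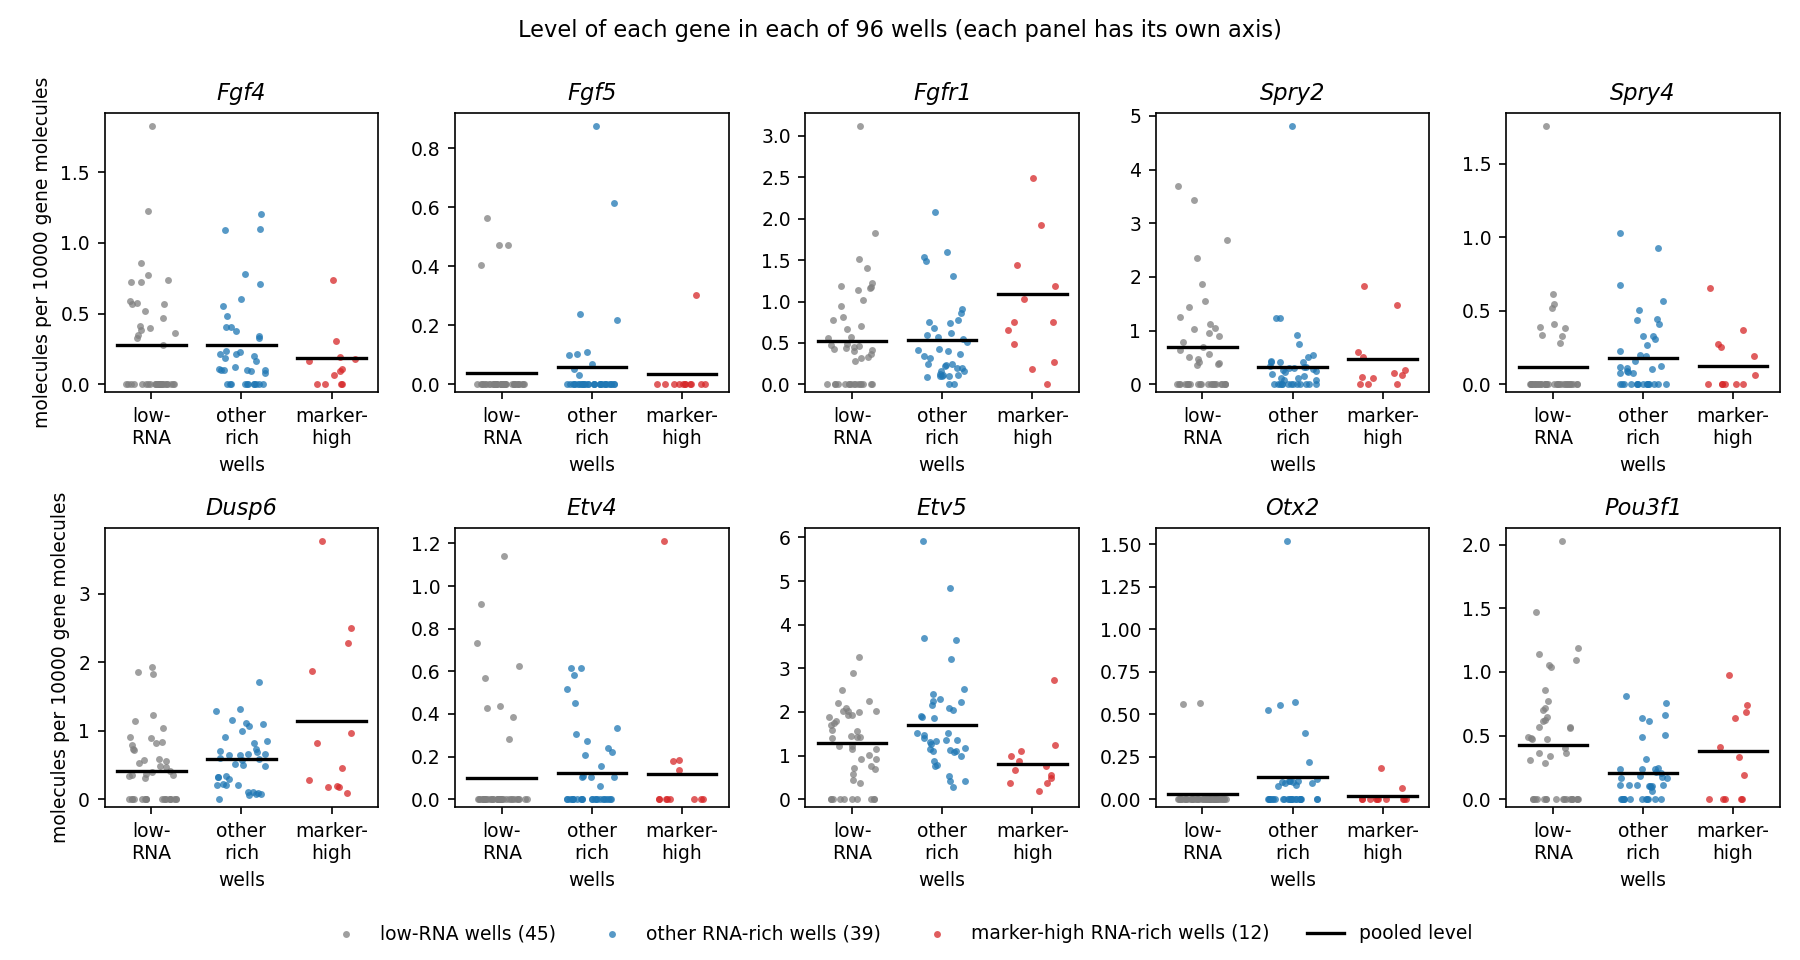
Level of each of the 10 genes in each well, as molecules per 10000 gene molecules on the vertical axis, for low-RNA wells, marker-high RNA-rich wells and other RNA-rich wells along the horizontal axis; each point is a well, the black bar is the pooled level, and each panel has its own axis. The 3 sets of wells overlap for every gene, and single wells such as A08 for Spry2 (4.82) and D05 for Otx2 (1.52) lie far above the rest.

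Fgf4, the ligand through which ES cells signal to themselves, lies on chromosome 7 at 144847367 to 144865243 (GENCODE M21 on GRCm38, as are all positions of genes below). In low-RNA wells its level ran from 0 through a median of 0 to 1.83, and 20 of 45 wells had a molecule. In RNA-rich wells it ran from 0 through a median of 0.120 to 1.204, and 36 of 51 wells had a molecule. Most wells thus held no or a single molecule of this ligand. The 7 RNA-rich wells with 10 molecules or more included the outlying deep wells C03 (12 molecules, level 0.376) and H03 (13 molecules, 0.227). They were led by C01 (14 molecules), which also had the highest ES marker sum of all wells (227). The variation of Fgf4 between RNA-rich wells was not called above technical noise, as given below, so these wells are not shown to be a set apart. The pooled levels were nearly equal, 0.277 (0.184 to 0.400) in low-RNA wells and 0.260 (0.221 to 0.305) in RNA-rich wells, and the ranges overlapped fully.

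Fgf5, on chromosome 5 at 98254184 to 98277030, is the ligand that marks the primed state. It was the rarest of the 10 genes, with 4 molecules in 4 low-RNA wells and 31 molecules in 11 RNA-rich wells. Its level ran from 0 to 0.565 in low-RNA wells and from 0 to 0.877 in RNA-rich wells, with a median of 0 in both. Wells D07, with 8 molecules, and B05, with 7, were the only ones with 5 or more, and together with G10, with 4, held most of the 31. The pooled levels, 0.0396 (0.0108 to 0.101) and 0.0531 (0.0361 to 0.0754), did not differ beyond counting error.

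Fgfr1, the receptor that carries most FGF signal in ES cells, lies on chromosome 8 at 25513654 to 25575718. Its level ran from 0 through a median of 0.430 to 3.12 in low-RNA wells, where 29 of 45 had a molecule. In RNA-rich wells it ran from 0 through 0.421 to 2.49, and 48 of 51 wells had a molecule. The medians of the ranges were close, and the receptor was detected in nearly all deep wells. Among RNA-rich wells its level was highest in G12 (2.49, from 37 molecules), D05 (2.08, from 26) and H07 (1.92, from 23), of which G12 and H07 were marker-high wells, while the deep well H03 had 33 molecules at a level of 0.575. The pooled levels were 0.524 (0.393 to 0.686) and 0.648 (0.584 to 0.716).

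Spry2, a Sprouty inhibitor of receptor tyrosine kinase signalling, lies on chromosome 14 at 105891947 to 105896819. In low-RNA wells its level ran from 0 through a median of 0.365 to 3.69, with a molecule in 23 of 45 wells. In RNA-rich wells it ran from 0 through 0.206 to 4.82, with a molecule in 35 of 51 wells. The highest well of the RNA-rich range, A08 with 26 molecules, lay far above the next, E02 at 1.84, while in the low-RNA range several wells lay above 2: C04, E06 and B04 at 3.69, 3.44 and 2.69 lead them. The pooled level was 0.693 (0.540 to 0.875) in low-RNA wells and 0.355 (0.308 to 0.406) in RNA-rich wells, intervals that do not overlap, while the wells of the 2 ranges do.

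Spry4, another Sprouty inhibitor, had 12 molecules in low-RNA wells and 99 in RNA-rich wells. Its level ran from 0 through a median of 0 to 1.76 in low-RNA wells, where 10 of 45 had a molecule, and from 0 through 0.0906 to 1.03 in RNA-rich wells, where 30 of 51 did. No well other than D01, with 10, held as many as 10 molecules of this inhibitor. The pooled levels of 0.119 (0.0613 to 0.207) and 0.170 (0.138 to 0.207) overlapped in their intervals.

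Dusp6, the cytoplasmic phosphatase that removes phosphate from ERK, lies on chromosome 10 at 99263231 to 99267489. Its level ran from 0 through a median of 0.360 to 1.94 in low-RNA wells, with a molecule in 26 of 45 wells. It ran from 0 through 0.591 to 3.78 in RNA-rich wells, with a molecule in 50 of 51. Its highest levels, in A03 (28 molecules), G12 (37) and A09 (14), were all in marker-high wells, and the ranges overlapped. The pooled level was 0.416 (0.299 to 0.562) in low-RNA wells and 0.704 (0.638 to 0.776) in RNA-rich wells, intervals that do not overlap and lie the other way round from those of Spry2.

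Etv4, an ETS transcription factor on chromosome 11 at 101769742 to 101785371, is switched on by FGF signalling in many tissues. It was detected in 9 of 45 low-RNA wells and 21 of 51 RNA-rich wells, with levels from 0 to 1.14 and from 0 to 1.21 and a median of 0 in both. The highest count was 9 molecules, in A03, the well that also led for Dusp6. The pooled levels, 0.0989 (0.0474 to 0.182) and 0.123 (0.0965 to 0.155), overlapped in their intervals.

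Etv5, the closely related ETS factor on chromosome 16 at 22381309 to 22439719, was the only one of the 10 genes found in every RNA-rich well. Its level ran from 0.193 through a median of 1.26 to 5.93 there, and from 0 through 1.22 to 3.27 in low-RNA wells, where 35 of 45 had a molecule. Wells A08 (32 molecules, 5.93), D01 (47 molecules, 4.84) and C01 (43 molecules, 3.70) were highest. A08 was thus the highest RNA-rich well for both Spry2 and Etv5. The pooled levels of 1.30 (1.08 to 1.54) and 1.52 (1.42 to 1.62) overlapped in their intervals.

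Otx2, the homeobox factor that drives exit from the naive state, lies on chromosome 14 at 48657677 to 48673819. In low-RNA wells 3 molecules were counted in 2 wells, and its level ran from 0 through a median of 0 to 0.565. In RNA-rich wells 62 molecules were counted in 18 wells, and its level ran from 0 through 0 to 1.52. Well D05 alone held 19 of the 62, and 10 of the 18 wells held a single molecule, so Otx2 was concentrated in few wells. The pooled levels were 0.0297 (0.00612 to 0.0867) and 0.106 (0.0814 to 0.136).

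Pou3f1, also known as Oct6, is a POU factor of the primed state and lies on chromosome 4 at 124656807 to 124660655. In low-RNA wells its level ran from 0 through a median of 0.365 to 2.03, with a molecule in 27 of 45 wells. In RNA-rich wells it ran from 0 through 0.113 to 0.980, with a molecule in 34 of 51 wells. Wells without it were common in both ranges, and none stood far above the others. The pooled level was 0.425 (0.308 to 0.573) in low-RNA wells and 0.242 (0.203 to 0.285) in RNA-rich wells, intervals that do not overlap. Otx2, the other primed-state factor, had its lower pooled level in low-RNA wells, but its 2 intervals overlapped.

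Because a shallow well misses more molecules, shares of wells with a molecule were also computed for wells thinned to 20000 gene molecules, which left out 16 low-RNA wells and no RNA-rich well. Spry2 was then expected in 54.4% of low-RNA and 37.4% of RNA-rich wells, and Pou3f1 in 53.02% and 31.3%, so both orders turned round from those of the unthinned counts. Dusp6 was expected in 49.9% and 63.2%, Otx2 in 2.79% and 12.8%, and Spry4 in 14.7% and 26.6%. Fgf4 was expected in 39.2% and 32.05%, an order that also turned round, Etv4 in 13.4% and 18.3%, and Etv5 in 83.8% and 87.9%. For Fgfr1, with 60.2% and 58.6%, and Fgf5, with 9.29% and 7.47%, the order turned round too, but the shares were close. Only the total of gene molecules was made equal, and it still held the larger mitochondrial and Rn45s share of the low-RNA wells.

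The first comparison asked whether feedback genes differed between low-RNA and RNA-rich wells. Of the 10 genes, 9 passed a minimum of 50 molecules over all wells, which Fgf5 did not. Otx2 was past 2-fold, at a low-RNA over RNA-rich ratio of 0.279 (0.0561 to 0.855), which makes 1 of 9 genes lower and 0 of 9 higher. Over all 8276 genes with as many molecules, 14.2% were at least 2-fold lower in low-RNA wells, 4.37% at least 2-fold higher and 18.6% past 2-fold in either direction, so 1 of 9 is near the background. The interval of Otx2 included the median ratio of all genes, 0.760, so Otx2 did not differ from that median beyond counting error. Its ratio rests on 3 molecules in low-RNA wells, of which 2 were in G02. The ratio was 0.0965 without G02 and 0.394 without D05, the RNA-rich well that held the most Otx2.

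Short of 2-fold, Spry2 had a ratio of 1.95 (1.47 to 2.57) and Pou3f1 of 1.76 (1.22 to 2.49), higher than 95.2% and 93.6% of all genes, and Dusp6 had 0.590 (0.419 to 0.812), higher than 25.97%. The median of all genes was 0.760. Of the inhibitors Spry2 and Dusp6, both targets of ERK, Spry2 lay above that median. The interval of Dusp6 included the median, so Dusp6 did not differ from it beyond counting error. The ratio of Spry2 ran from 1.74 without C04 to 2.21 without A08, where it would pass 2-fold. The remaining intervals all included 1: Fgf4 1.06 (0.684 to 1.5996), Fgfr1 0.810 (0.596 to 1.08), Spry4 0.700 (0.350 to 1.28), Etv4 0.802 (0.369 to 1.56) and Etv5 0.853 (0.704 to 1.03). The median over the 9 genes was 0.810.

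These directions are relative to all gene molecules of the well. Relative to spike-ins, the median of all genes was 0.236, and every one of the 10 genes was lower in low-RNA wells, Spry2 at 0.608 and Pou3f1 at 0.548 included. With mitochondrially encoded genes and Rn45s left out of the total, the median of all genes was 1.02, Spry2 was at 2.62, Pou3f1 at 2.36 and Otx2 at 0.375, and Dusp6 was at 0.791. Under that total 10.8% of genes were at least 2-fold higher and 5.20% at least 2-fold lower, the reverse of the main split. Without C03 and H03 the ratios were close to those with them, for example 1.96 for Spry2, 1.80 for Pou3f1 and 0.582 for Dusp6. Whether the share of mitochondrial RNA has a part in these ratios was not tested.

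**Figure D2:**
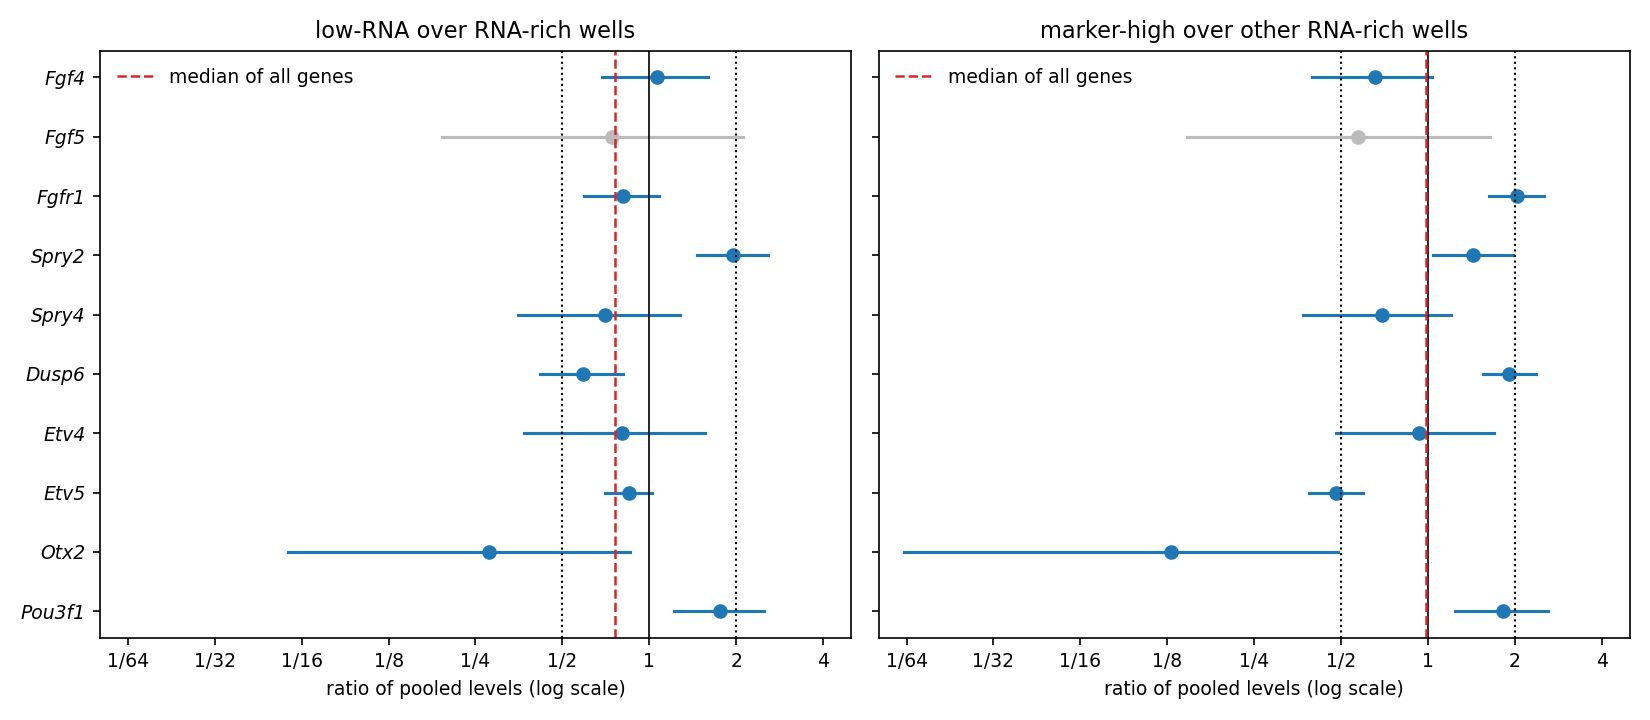
Ratio of pooled levels (horizontal axis, log scale) for each of the 10 genes, low-RNA over RNA-rich wells on the left and marker-high over other RNA-rich wells on the right; points are ratios to all gene molecules, lines are 95% intervals of counting error, dotted lines mark 2-fold, the red dashed line is the median of all genes, and Fgf5, under the minimum of 50 molecules, is grey. On the left Spry2 (1.95) and Pou3f1 (1.76) lie above 1, though both fall below 1 relative to spike-ins (0.608 and 0.548), and on the right Fgfr1 (2.03) lies above 1 while Etv5 (0.481) and Otx2 (0.129) lie below.

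The second comparison set the 12 marker-high wells against the other 39 RNA-rich wells, which had like depth (medians of 100478 and 98750 gene molecules). Among 9 genes with at least 50 molecules in the RNA-rich range, 1 was at least 2-fold higher in marker-high wells (Fgfr1), where 8.99% of all 7811 genes were, and 2 were at least 2-fold lower (Etv5 and Otx2), where 8.48% of all genes were. The median ratio of all genes was 0.988 and that of the 9 genes 0.934. The grouping was made after seeing the marker sums, so these values describe the wells and support nothing further.

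Fgfr1 was at 1.08 in marker-high wells and 0.535 in the others, a ratio of 2.03 (1.63 to 2.52) that was 1.66 without G12. Its wells ran from 0 through 0.756 to 2.49 in the first set and from 0 through 0.371 to 2.08 in the second. Dusp6, at 1.13 against 0.593, had a ratio of 1.91 (1.55 to 2.36), and 1.62 without A03. The medians of its wells were close (0.639 and 0.591), so its difference came from a few high wells, A03, G12, A09 and A06. Pou3f1 was at 0.376 against 0.207, a ratio of 1.81 (1.24 to 2.61).

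Etv5 went the other way: at 0.818 in marker-high wells and 1.70 in the others, it had a ratio of 0.481 (0.386 to 0.594). Its wells ran from 0.193 through 0.713 to 2.72 and from 0.272 through 1.41 to 5.93. Otx2 had 2 molecules in marker-high wells and 60 in the others, a ratio of 0.129 (0.0153 to 0.487), with 19 of the 60 in D05. Fgf4 was at 0.184 and 0.280, a ratio of 0.655 (0.397 to 1.03) that was 0.374 without G12, which held 11 of its 22 molecules there. The receptor was thus higher in marker-high wells, while the ligand was not. For Spry2 (1.44, 1.04 to 1.96), Spry4 (0.691, 0.370 to 1.21) and Etv4 (0.934, 0.481 to 1.70) the ratios lay nearer to 1. Whether cells of other types were in these wells, and have a part in these ratios, was not tested.

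Leaving the marker-high wells out of the RNA-rich range changed the first comparison. The low-RNA over RNA-rich ratio was then 2.13 for Spry2, 2.06 for Pou3f1 and 0.229 for Otx2, so that 3 of the 9 genes were past 2-fold, with 18.6% of all genes past it. The ratio of Dusp6 was 0.701 and that of Fgfr1 0.981.

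The variation of each gene between wells was set against that of spike-ins, which carry technical noise only. The squared coefficient of variation (CV) was divided by the spike-in fit at the same mean, and a gene was called above technical noise where that ratio was at least 2 with all wells and again without its highest well. In RNA-rich wells 9 genes had a mean of at least 1 molecule (all but Fgf5) and 1 was called, Etv5, with a CV of 0.734 and a ratio of 2.84, or 2.16 without its highest well. Over all 7768 genes with such a mean, 7% were called, and the median ratio was 1.36 against 1.90 for the 9 genes, so a count of 1 in 9 is near the background.

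Single wells carried much of the variation of the other feedback genes. Spry2 had a ratio of 4.90 with all wells and 1.87 without A08, Dusp6 had 2.42 and 1.68 without A03, and Otx2 had 2.20 and 1.03 without D05. Fgfr1 had 1.90 and 1.63. The variation of Pou3f1 (1.09), Spry4 (1.15), Fgf4 (1.33) and Etv4 (1.47) lay close to the spike-in fit, so at this depth spread beyond technical noise was not detectable for them by this rule. Without C03 and H03, 1 of 8 genes was called (again Etv5), with 8.82% of all genes called. Without the marker-high wells none of 9 was called, Etv5 having ratios of 2.66 and 1.94, with 4.11% of all genes called. In low-RNA wells 4 genes had a mean of at least 1, none was called, and 0.594% of all genes were. There the median ratio of all genes was 0.473, which puts the fit above most genes. In simulated data the rule found 46% of genes given an added CV of 1, and 38.6% of those with a mean under 20 molecules, so a gene at the level of these 9 can be missed.

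**Figure D3:**
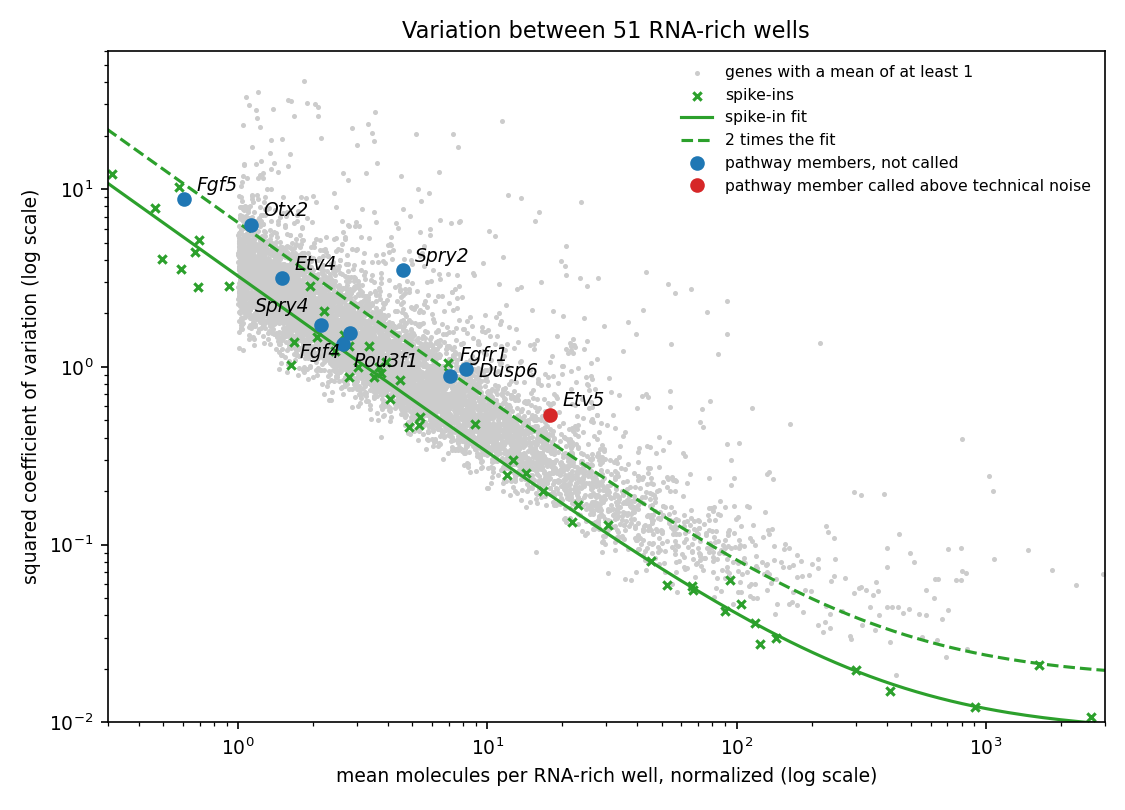
Squared CV between the 51 RNA-rich wells (vertical axis, log scale) against mean normalized molecules per well (horizontal axis, log scale) for all genes with a mean of at least 1 (grey), spike-ins (green crosses) and the 10 genes (circles); the solid line is the spike-in fit and the dashed line 2 times the fit. Etv5 (red) is the called gene at a ratio of 2.84; Spry2, at 4.90, lies higher but falls to 1.87 without well A08, and Fgf5 has a mean under 1.

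Whether the genes of the pathway were high in the same wells was read from rank correlations of levels over the 51 RNA-rich wells. The wells share culture, chip and sequencing, and with counts this sparse a weak correlation is no finding. Among 36 pairs of 9 genes the median Spearman rho was -0.0118, and 16 pairs were above 0. The median over all pairs of 7768 genes was 0.0190. In 2 of 36 pairs (5.56%) rho was at least 0.3, against 2.84% of all gene pairs. The pair most alike was Dusp6 and Pou3f1 at 0.532 (0.536 without C03 and H03, and 0.516 over the 39 wells without marker-high wells), higher than 99.98% of all gene pairs. The next was Fgfr1 and Pou3f1 at 0.379, or 0.345 without marker-high wells. In the 45 low-RNA wells, where both genes had few molecules, the values were 0.00418 and -0.00617.

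Among the genes known as targets of ERK, no pair reached a rank correlation of 0.3 over the 51 wells, but by Pearson correlation of log2(level + 1) Spry2 and Spry4 had 0.409 and Spry4 and Etv5 0.341. Spry2 and Spry4 had a rho of 0.173, Spry2 and Dusp6 of 0.0604, Spry4 and Dusp6 of -0.255, Etv4 and Etv5 of -0.00745, Dusp6 and Etv5 of -0.269, and Spry4 and Etv4 of 0.239. The lowest of all pairs was Fgfr1 and Etv5 at -0.407, or -0.287 without marker-high wells. Without those wells Spry4 and Etv4 reached 0.404 and Spry2 and Pou3f1 0.344, so 4 pairs were then at 0.3 or more. The ligand Fgf4 and the receptor Fgfr1 had a rho of -0.207.

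**Figure D4:**
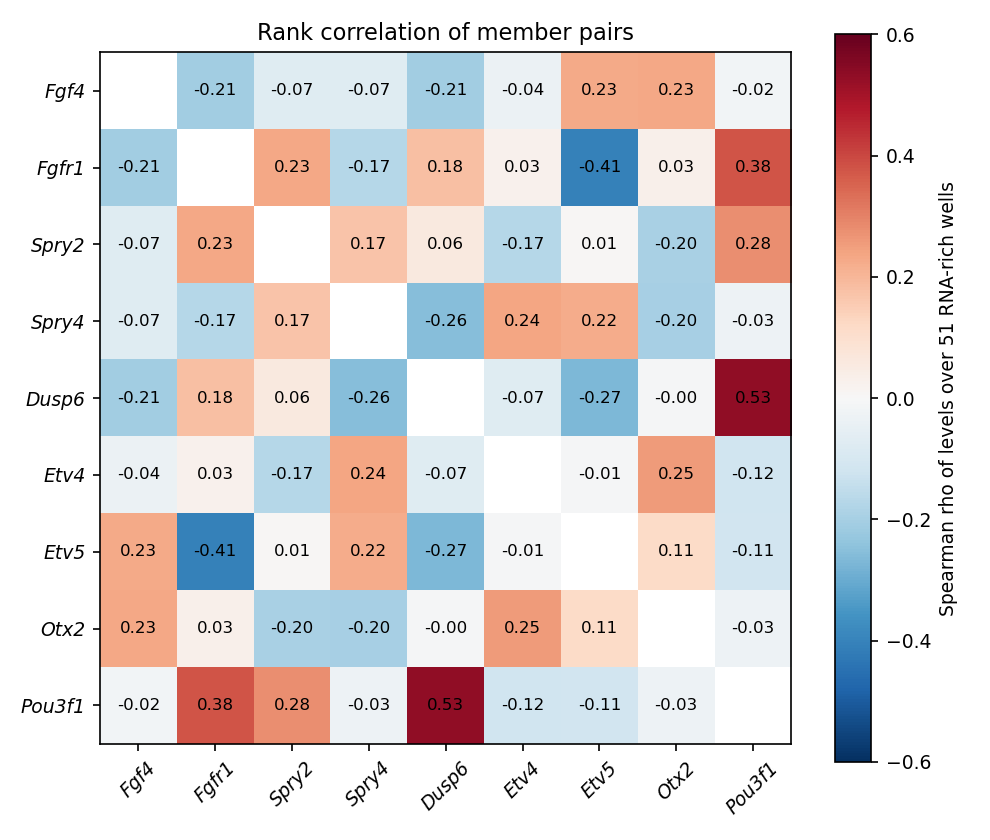
Spearman rho of levels over the 51 RNA-rich wells for every pair of the 9 genes that averaged 1 molecule or more; red is positive and blue negative. Dusp6 and Pou3f1 (0.53) and Fgfr1 and Etv5 (-0.41) are the extremes, and the inhibitors and ETS factors form no block of positive values.

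**Figure D5:**
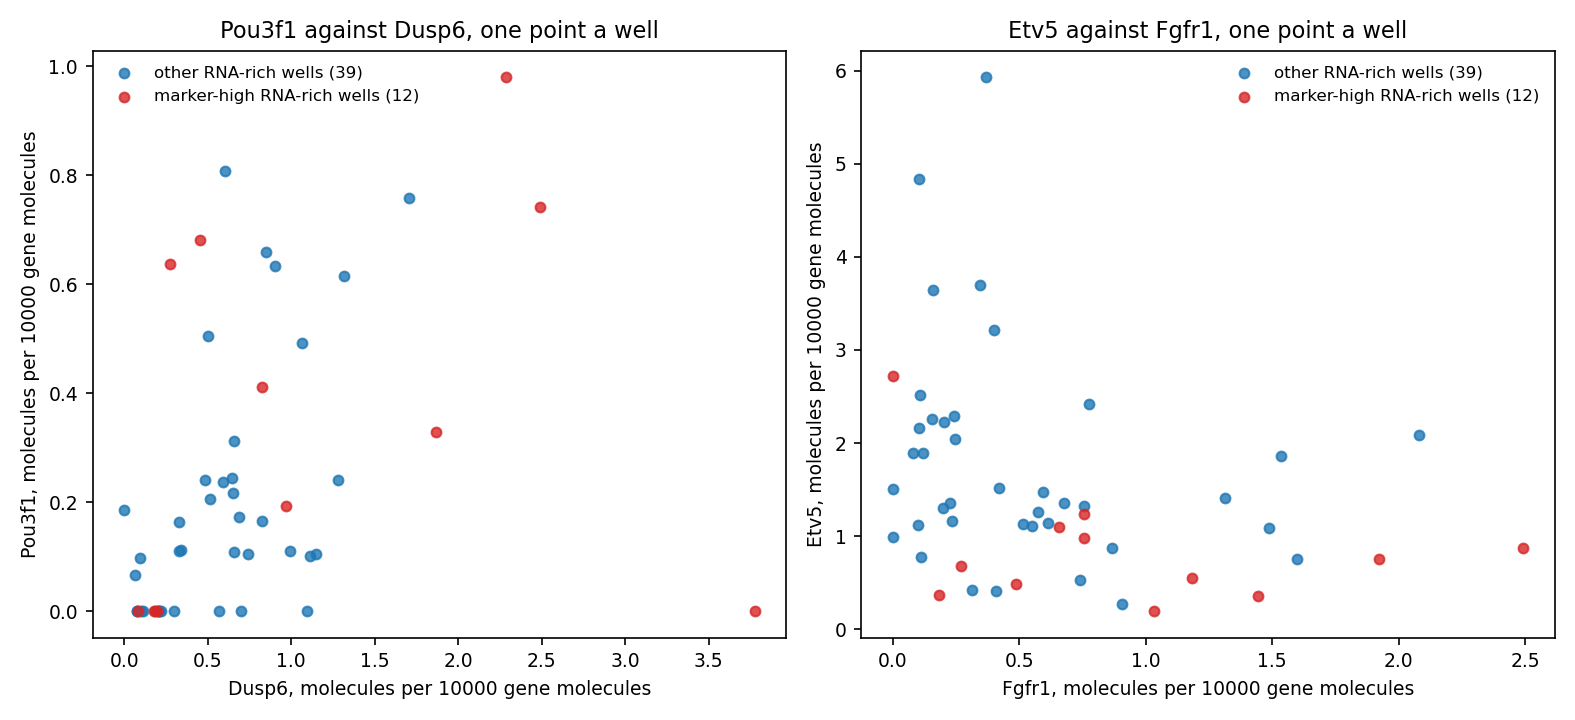
Levels in RNA-rich wells as molecules per 10000 gene molecules, Pou3f1 against Dusp6 on the left and Etv5 against Fgfr1 on the right; each point is a well, marker-high wells in red and the other 39 in blue. Many wells without Pou3f1 have low Dusp6, A03 (3.78 for Dusp6) being an exception, and of the wells highest for Etv5, A08 (5.93) has Fgfr1 at 0.371 and D01 (4.84) at 0.103.

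Across RNA-rich wells the level of Etv5 went with the ES marker sum (rho 0.413) and against the feeder sum (-0.403), and so did Fgf4 (0.337 and -0.334). Fgfr1 went with the feeder (0.410), primitive endoderm (0.501) and trophectoderm (0.481) sums and against the ES sum (-0.347). Within the 39 wells that were not marker-high, Fgf4 kept the same signs (0.417 and -0.385), as did Fgfr1 (0.349 for feeder and -0.309 for ES markers), while Etv5 had 0.253 and -0.110. Pou3f1 went with the trophectoderm (0.3625) and primitive endoderm (0.311) sums and against the ES sum (-0.286) in RNA-rich wells, and within the 39 wells it had -0.417 with ES and 0.392 with primitive endoderm markers. In low-RNA wells Pou3f1 had 0.505 with the trophectoderm sum, while Fgf4, Fgfr1 and Etv5 had 0.115, 0.0125 and -0.0328 with the ES sum and 0.0536, -0.260 and -0.0921 with the feeder sum. In RNA-rich wells the primitive endoderm sum came mostly from Lamb1 (0.437), Dab2 (0.1165) and Col4a1 (0.108). Sox17 and Sox7 had no molecule and Gata6 had 2 over all wells. As the ES sum was mostly Dppa5a, relations to these 2 sums are not shown for each list as a whole. The marker sums move with the levels of Fgf4, Fgfr1, Etv5 and Pou3f1 in RNA-rich wells, and their part in those levels was not tested.

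Against fixed partner genes, Pou3f1 went with Dnmt3b, a DNA methyltransferase raised in primed cells, at a rho of 0.499 over the 51 RNA-rich wells, and against the naive genes Esrrb (-0.350) and Zfp42 (-0.337). In the 45 low-RNA wells the same pairs had -0.0277, 0.303 and 0.101, so this pattern was not seen there. Fgf4 and Etv5 went with Zfp42 (0.425 and 0.388), of whose molecules 59.3% were unique, and Fgfr1 against it (-0.331). Spry4 went with Klf4 (0.452), of whose molecules only 38.7% were unique. In low-RNA wells these 4 pairs had -0.0822, 0.124, -0.235 and -0.0630. The immediate early genes, which ERK switches on within minutes, did not go with the feedback genes as a set: in RNA-rich wells Fgfr1 had -0.370 with Egr1, Dusp6 had 0.327 with Fos, and no other of the 9 genes reached 0.3 in either direction with Egr1 or Fos. In low-RNA wells Fgfr1 and Egr1 had the other sign (0.319), Dusp6 and Fos had 0.113, Spry4 had 0.410 with Fos and Etv5 had 0.391 with Egr1. Etv4 had 0.327 with Tbx3 in RNA-rich and -0.168 in low-RNA wells.

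By the same measure over 51 wells and 7768 genes, the genes most like each of the 9 that are named here had rho values from 0.452 to 0.610, the top of a long list and given as a description. They were Bola1, Hsf2bp and Ppa2 for Fgf4; Marcks, Cnih and the keratin gene Krt8 (0.513) for Fgfr1; Adam9, Gas2l1 and Terf2 for Spry2. For Spry4 they were Cntrob, Gkap1 and Rbbp6, and for Dusp6 Alyref (0.581), Pou3f1 and Car3. Etv4 had Pofut2, Mir686 (no unique molecules, so uncertain) and Pja1. Etv5 had Tdrd12 (0.610), Slc29a1 and Sap30, and Otx2 had Ndufs8, Cdc42bpb and N6amt2. Pou3f1 had Arpc5 (0.533) and Dusp6. Dusp6 and Pou3f1 thus stood in each other's lists, and no other gene of the 10 stood in the list of another.

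Of the other pathway genes, 98 of 99 on a fixed list were found in the table under their symbols, and 59 passed the minimum of 50 molecules. Between low-RNA and RNA-rich wells 4 of the 59 were at least 2-fold higher and 8 at least 2-fold lower, shares near the 4.37% and 14.2% of all genes, and their median ratio was 0.897. The 4 were Fgf8 (2.04), Braf (2.46), Etv1 (2.03, with 53.2% of its molecules unique) and Lef1 (2.05). The 8 were Fgf17 (0.437), Ext2 (0.418), Hs2st1 (0.453), Frs2 (0.425), Mapk3 (0.186), Rps6ka1 (0.430), Pebp1 (0.444) and Sall2 (0.373). The intervals of Ext2 (0.132 to 1.02), Frs2 (0.134 to 1.04) and Sall2 (0.0984 to 1.003) included 1. Mapk3, which encodes the kinase ERK1, had 3 molecules in low-RNA wells.

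Levels in the rest of the pathway are not divided by length, so their order is one of molecules counted. By that measure Fgf4, with 180 molecules, was not the most counted ligand. Fgf8, another ligand of ES cells, had 257 molecules (level 0.375), Fgf17 had 142 (0.207) and Fgf15 had 58 (0.0847), and 11 of the 20 ligands other than Fgf4 and Fgf5 had no molecule, which allows up to 3 molecules over all wells by counting error. Of the receptors and co-receptors the glypicans Gpc3 (0.438) and Gpc4 (0.326) and the syndecan Sdc4 (0.221) were highest, whereas Fgfr2 was at 0.101 and Fgfr3 and Fgfr4 had 5 and 2 molecules. Fgfr1 was thus by far the most counted of the FGF receptors. Heparan sulfate enzymes, which make the sugar chains that FGFs need as co-factors, were led by Ext1 (0.530), Hs6st1 (0.269) and Hs6st2 (0.200). The adaptors between receptor and Ras were led by Gab1 (0.663), Grb2 (0.381) and Shc1 (0.371), and the GTPase gene Nras was at 1.15 in the kinase cascade.

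Among inhibitors other than Spry2, Spry4 and Dusp6, Pebp1, which binds Raf, was highest at 4.44, though 50.2% of its molecules were unique, before Rasa1 (0.442) and Dusp9 (0.390). Spry1 had 35 molecules and Spry3 had none. Above technical noise in RNA-rich wells were 7 of 57 measured pathway genes, against 7% of all genes, among them the cyclin gene Ccnd1, the targets Fos, Junb and Phlda1, and the DNA methyltransferases Dnmt3a and Dnmt3b. By level, the targets and effectors were led by Ccnd1 (1.87), Fos (1.56) and Egr1 (1.06). Of the 10 measured ones 4 were called, with ratios from 3.26 for Fos to 8.14 for Phlda1, while Egr1 had 5.90 with all wells and 1.91 without its highest. None of the 9 measured inhibitors of this list was called. Of the primed-state genes, Dnmt3b was at 2.39 and Dnmt3a at 0.764.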

How the data were processed

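RNA molecules of 96 single cells of 1 culture were measured as counts. The deposited values are molecule counts per feature and cell barcode, per the file headers, which also say that a read matching several places was given to its most 5′ exonic hit and counted. Bowtie, with no version, and the build mm10 (GRCm38) are named in the submitters' processing notes. The table held 24264 genes, 96 spike-ins and 1554 repeat types, and no well was left out. No doublet caller was run, and chamber images were not used here.

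Computed here were pooled levels with exact Poisson intervals, ratios with exact conditional binomial intervals, squared CVs over a spike-in fit of a/mean + b (gamma model, identity link, spike-ins averaging 0.1 molecules or more), and Spearman correlations of levels. Intervals cover counting error at 95% and not the spread between cultures. Because all wells come from 1 culture, no p-value was computed. Summed depth was 1010740 gene molecules in low-RNA and 5836811 in RNA-rich wells. Limits of 2-fold and 50 molecules were used. Thinning was to 10000, 20000 or 50000 gene molecules.

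The genes, lists and most alternatives were chosen with earlier results of these data known. The genes named were the 10 genes, the 3 highest levels of each pathway list, every pathway gene past 2-fold or above technical noise, the 3 genes most like each of the 9 measured genes, fixed partners with a rho of at least 0.3 in size, and markers where their sums are described. A few genes that this rule names are not reported here. Fgfr2, Fgfr3, Fgfr4, Spry1, Spry3 and Egr1 were named in addition, after their values were seen. Leaving out wells C03 and H03, and leaving out marker-high wells, were chosen after seeing the data. On simulated data with 8276 genes the 2-fold rule recovered 99% of genes given 3-fold higher and 94% of those given 3-fold lower levels in low-RNA wells, and called 1.46% of unchanged genes. Those simulated counts held counting error only. The spike-ins varied more than that (a of 3.23 in the fit over RNA-rich wells), so these rates do not carry over to the measured wells. Promoters are RefSeq's on GRCm38.p6. Scripts ran under Python 3.11.15 with scipy 1.17.1, numpy 2.4.6 and matplotlib 3.10.9.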

Additional observations from a re-analysis of the deposited data

How the results depend on the processing

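The count of genes past 2-fold between ranges was 1 of 9, with 18.6% of all genes past it. It moved to 7 relative to the spike-in total, where 91.5% of all genes were at least 2-fold lower. It moved to 3 without mitochondrially encoded genes and Rn45s in the total, where 10.8% were at least 2-fold higher and 5.20% lower. Without the marker-high wells it moved to 3, with 18.6% of all genes past 2-fold. It was 1 under the 5 other alternatives. Relative to spike-ins the ratios of Spry2 and Pou3f1 turned round, to 0.608 and 0.548, and by construction each ratio is then scaled down with the median of all genes. The count above technical noise was 1 of 9 measured genes, with 7% of all genes called. It moved to 0 of 6 when wells were thinned to 50000 gene molecules, with 2.37% of all genes called. With a limit of 1.5 times the fit it moved to 4 (Fgfr1, Spry2, Dusp6 and Etv5), with 19.2% of all genes called. In low-RNA wells it moved to 0 of 4, with 0.594% called. Without the marker-high wells it moved to 0, with 4.11% called. The lower limit admits more genes by construction, and the cause of the other moves was not tested. The median rho of pairs stayed between -0.0521 and 0.0429 under 8 alternatives. Pairs at 0.3 or more numbered 2, but 4 by Pearson correlation of log2(level + 1), 4 without the marker-high wells and 0 in low-RNA wells. No paired analysis was possible because all wells come from 1 culture and no result comes from a test. Most wells held under 5 molecules of most of these genes, so differences between single wells of a few molecules were not detectable.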
